A study of Mus musculus with 12 samples.

Results

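Mouse embryonic fibroblasts that lacked Ing1 were compared with wild-type ones after 6 days of conversion to adipocytes. The comparison takes the 3 libraries labelled Ing1-KO and the 3 labelled WT, 6 of the 12 libraries of the series. The fibroblasts, a C57BL/6N strain background, were isolated from male E15.5 embryos and kept for 4 passages. Embryos of every genotype came from interbreeding Gadd45a-deficient with Ing1-deficient mice, so that Ing1-KO lacks Ing1 and keeps Gadd45a, and WT keeps both genes. All cultures, WT included, were given insulin at 10 µg/ml, rosiglitazone at 2 µM, dexamethasone at 1 µM and IBMX at 0.5 mM for 48 h after confluence, then medium with insulin. The labels do not say whether the 3 libraries of a genotype came from separate embryos or cultures, so every p-value measures the spread between these libraries, which may be technical. Fibroblasts of this kind are a mixture of embryonic connective tissue cells, and in such bulk RNA fewer cells of a type and less RNA per cell cannot be told apart.

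ING1 is the founding member of the inhibitor of growth family. Its plant homeodomain finger binds methylated histone H3, and the protein works within the SIN3 histone deacetylase complex, which represses transcription; it has also been linked to p53 and to growth arrest. In adipogenesis, hormones and a PPARγ ligand drive fibroblasts through CEBPB and CEBPD to PPARG and CEBPA, which turn on the lipid-storing genes of the fat cell.

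The level of Ing1 (ENSMUSG00000045969) was 44.6, 47.9 and 43.6 CPM in WT and 1.003, 1.07 and 1.597 CPM in Ing1-KO, where CPM is the read count scaled to the size of its library, with TMM factors between libraries. These levels correspond to between 2127 and 2211 reads in each WT library and to 50, 51 and 83 reads in the Ing1-KO libraries. The groups were far apart, and the fitted difference was 36.9-fold (log2 fold change -5.21 ± 0.15 (SE), adjusted p = 2.37e-08). Gadd45a (ENSMUSG00000036390), the other targeted gene of the series, read 14.5, 17.9 and 15.1 CPM in WT and 13.4, 14.99 and 18.4 CPM in Ing1-KO, and these groups overlapped (adjusted p = 0.948). Gene reads ranged from 46310012 to 51393433 per library in the 6 libraries. The libraries labelled Gadd45a-KO and DKO, used below for a second look at the loss of Ing1, had Gadd45a levels between 138.0 and 144.4 CPM. These labels name a knockout of Gadd45a, yet the levels lay above all WT values. Gene counts do not show which exons the reads came from, and the cause was not tested.

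Among 16163 genes tested, 388 were higher and 311 lower in Ing1-KO, or 2.4% and 1.92% (edgeR's quasi-likelihood test, Benjamini-Hochberg adjusted p under 0.05). The changes were small: the median log2 fold change of all genes was 0.00313, that of the called rises 0.59 and that of the called falls -0.38, and 109 rises and 41 falls reached a 2-fold change. All 388 rises and 310 of the 311 falls had Ing1-KO values that did not overlap with WT, where 14.2% of all genes tested lay wholly above WT and 12.5% wholly below. How many genes passed depended on single libraries. Dropping Ing1-KO replicate 2 left 63 rises and 38 falls, and dropping WT replicate 1, 2 or 3 left 99 and 68, 76 and 76, or 101 and 82. A fit that lacked Ing1-KO replicate 3 had 698 and 505, and a fit that lacked Ing1-KO replicate 1 had 333 and 539. Of the genes called, 54 rises and 35 falls, 0.551% of all genes tested, passed in every one of 12 fits that each left out 1 of the 12 libraries, and those are said below to have held in every fit.

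**Figure D1:**
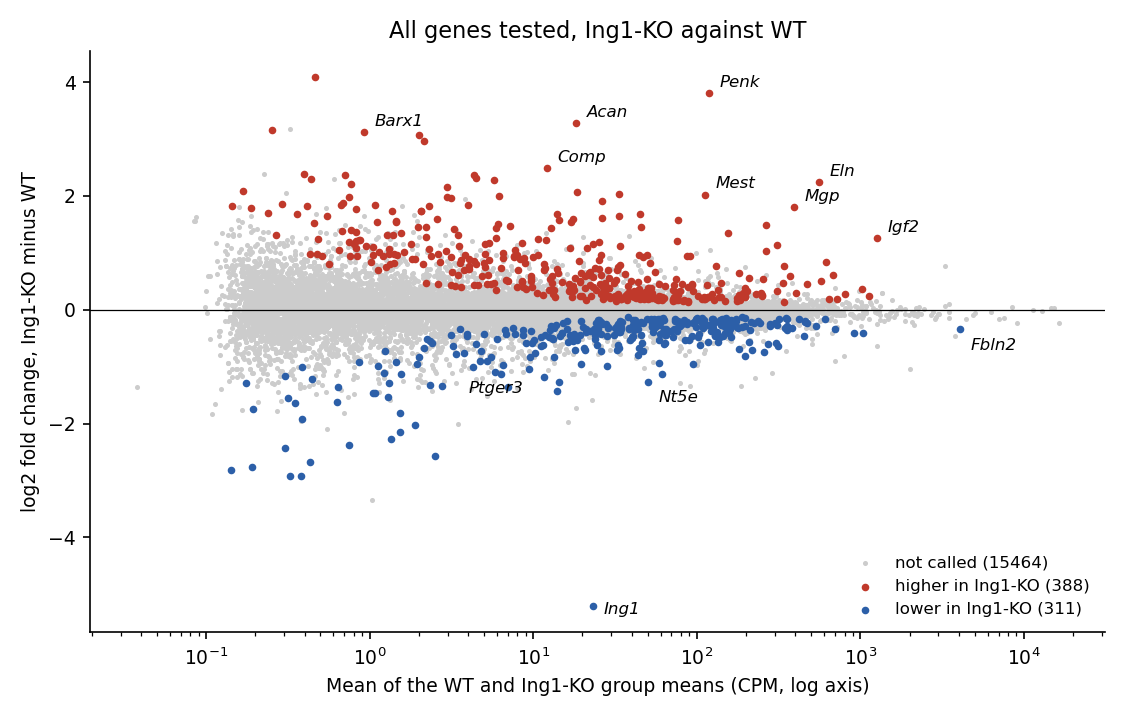
Log2 fold change, Ing1-KO minus WT, of each gene tested (vertical axis) against the mean of its 2 group means in CPM (log axis). The 388 genes called higher are red, the 311 called lower blue and the others grey; Ing1 stands alone at the bottom, and Penk, Acan and Comp are among the highest.

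The Ing1-KO libraries differed among themselves in fat-cell genes. A score over 37 genes of adipocyte identity and the lipid droplet, their mean log2 CPM, was 5.55, 4.53 and 5.48 in WT and 5.38, 4.04 and 2.52 in Ing1-KO. Ing1-KO replicate 1 thus lay within the WT range, replicate 2 just below it and replicate 3 far below. That score is read from the same libraries and may itself depend on the genotype, which was not tested. With the score as a covariate in the fit, 325 of the 388 rises and 240 of the 311 falls were again called. The totals were then 817 and 819, together 10.1% of all genes tested.

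Of 26 tested members of a cartilage list 4 matrix genes were higher and none lower, where 2.4% of all genes tested were higher. The other 22 did not pass, 6 of the 26 had a value below 0, and the list's median log2 fold change was 0.25. Acan encodes aggrecan, the large proteoglycan of cartilage, and read 3.17, 3.42 and 3.64 CPM in WT and 18.4, 58.6 and 22.4 CPM in Ing1-KO. Each Ing1-KO library lay above each WT library, with replicate 2 the highest, and the difference was 9.69-fold (log2 fold change 3.28 ± 0.50 (SE), adjusted p = 0.00979). It held in every fit, where its largest adjusted p was 0.0494. Col10a1, the collagen of hypertrophic chondrocytes, read 1.66, 2.21 and 2.03 CPM in WT and 8.94, 10.05 and 9.56 CPM in Ing1-KO. The 3 Ing1-KO values were close together and far from WT (log2 fold change 2.27 ± 0.36 (SE), adjusted p = 0.0106), and the call was lost in 1 of the 12 fits at an adjusted p of 0.0518. Comp, cartilage oligomeric matrix protein, read 3.82, 2.75 and 4.400 CPM in WT and 33.6, 20.1 and 8.16 CPM in Ing1-KO, a 5.62-fold difference (log2 fold change 2.49 ± 0.44 (SE), adjusted p = 0.0164). Its Ing1-KO values fell apart by more than those of Col10a1, with replicate 3 nearest to WT, and the call was lost in 4 of the 12 fits. Col11a1, a minor fibrillar collagen of cartilage, rose 1.52-fold (adjusted p = 0.0248). Sox9, the transcription factor that specifies chondrocytes, read 24.9, 21.5 and 23.2 CPM in WT and 28.4, 24.8 and 19.5 CPM in Ing1-KO, with overlapping groups (adjusted p = 0.869). The number of cartilage genes higher was 1 without WT replicate 1, 2 without Ing1-KO replicate 2 or WT replicate 3, and 6 once Ing1-KO replicate 3 was dropped.

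Other matrix genes moved in either direction. Scx, which encodes the tendon transcription factor scleraxis, was the single called member of 13 tested tendon genes and read 0.797, 0.997 and 1.25 CPM in WT and 2.99, 3.77 and 4.06 CPM in Ing1-KO. The groups were apart (log2 fold change 1.82 ± 0.20 (SE), adjusted p = 0.00170), and the call held in every fit. Eln encodes tropoelastin, the core of elastic fibres, and read 188, 176 and 219 CPM in WT and 797, 1179 and 782 CPM in Ing1-KO. It rose 4.73-fold (log2 fold change 2.24 ± 0.42 (SE), adjusted p = 0.0224), a call lost in 4 of the 12 fits, while Fbln2, an elastic-fibre glycoprotein, read 4589, 4567 and 4526 CPM in WT and 3434, 3578 and 3769 CPM in Ing1-KO and fell (log2 fold change -0.34 ± 0.06 (SE), adjusted p = 0.00947). These were the only calls among 22 tested elastic-fibre genes. Col26a1 and Col8a2 were the 2 calls among 31 tested collagens outside cartilage, both higher (log2 fold changes 1.54 ± 0.16 and 0.65 ± 0.16, adjusted p = 0.00136 and 0.0467). Tnfsf11, the ligand that drives osteoclast formation, was the single call among 16 tested bone genes (log2 fold change 0.89 ± 0.21 (SE), adjusted p = 0.0387). The shares called of the tendon, elastic-fibre, collagen and bone lists were 7.69%, 9.09%, 6.45% and 6.25%, against 4.32% of all genes tested.

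Among 36 tested matrix proteases and inhibitors 4 were higher and 3 lower, or 19.4% called against 4.32% of all genes tested. Serpine2, an inhibitor of serine proteases, read 201, 159.6 and 220.4 CPM in WT and 469.9, 459 and 350.4 CPM in Ing1-KO. It rose 2.202-fold with no overlap (log2 fold change 1.14 ± 0.14 (SE), adjusted p = 0.00404) and held in every fit. Mmp2, a gelatinase, Mmp16, a membrane-bound metalloprotease that can activate it, and Timp2, an inhibitor of metalloproteases, also rose, by 1.38-fold, 1.57-fold and 1.28-fold (adjusted p = 0.0326, 0.0254 and 0.0123). Adamts1 and Adamts2, of which the second trims procollagen, and Mmp12, the macrophage elastase, fell (log2 fold changes -0.35 ± 0.08, -0.28 ± 0.05 and -0.73 ± 0.18, adjusted p = 0.0425, 0.0128 and 0.0498). With Ing1-KO replicate 2 or WT replicate 1 left out, this list had 1 rise and no fall.

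Imprinted genes, active on a single parental allele, were called in 5 of 29 cases, all higher, with a list median of 0.12. That was 17.2%, where 2.4% of all genes tested were higher. Mest, a paternally expressed hydrolase-like gene that marks growing mesoderm and fat tissue, read 48.8, 35.5 and 48.5 CPM in WT and 197, 213 and 129.7 CPM in Ing1-KO. Every Ing1-KO library was far above WT, 4.07-fold on average (log2 fold change 2.02 ± 0.20 (SE), adjusted p = 0.00163), and the call held in every fit. Igf2, the fetal growth factor, read 759.9, 578 and 897 CPM in WT and 2372, 1893 and 1104 CPM in Ing1-KO. Its rise (log2 fold change 1.26 ± 0.27 (SE), adjusted p = 0.0341) was lost in 6 of the 12 fits, and Ing1-KO replicate 3, the library with the lowest adipocyte score, was nearest to WT. H19, the noncoding RNA next to Igf2, read 2437, 2115 and 2797 CPM in WT and 5276, 4421 and 2769 CPM in Ing1-KO, where Ing1-KO replicate 3 lay within the WT range, and did not pass (log2 fold change 0.76 ± 0.20 (SE), adjusted p = 0.0617). Grb10, Meg3 and Airn rose by 1.21-fold, 1.18-fold and 1.42-fold (adjusted p = 0.0265, 0.0186 and 0.0273). Airn runs antisense to Igf2r, and as the strand setting is not given in the sources used here its reads are uncertain. Dlk1, an imprinted inhibitor of adipogenesis, read 104, 104 and 114 CPM in WT and 175, 112 and 79.4 CPM in Ing1-KO, with overlapping groups (adjusted p = 0.758). The imprinted genes called higher numbered 1 without Ing1-KO replicate 2, WT replicate 2 or WT replicate 3, 2 without WT replicate 1, and 7 without Ing1-KO replicate 3; with the adipocyte score as covariate they numbered 8.

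In the insulin-like growth factor system 3 of 21 tested genes were higher and 2 lower, or 23.8% called against 4.32% of all genes. Besides Igf2, the binding proteins Igfbp2 and Igfbp4, which hold these growth factors outside the cell, were higher. Igfbp2 read 247, 260.3 and 255 CPM in WT and 428, 453 and 414 CPM in Ing1-KO, with tight and separate groups (log2 fold change 0.77 ± 0.10 (SE), adjusted p = 0.00431), and held in every fit. Igfbp4 read 182, 157 and 186 CPM in WT and 448, 405 and 215 CPM in Ing1-KO, and its Ing1-KO replicate 3 was again closest to WT (log2 fold change 1.02 ± 0.22 (SE), adjusted p = 0.0343). Stc2, stanniocalcin, and Igfbp7 fell (log2 fold changes -0.53 ± 0.08 and -0.28 ± 0.07, adjusted p = 0.00882 and 0.0485).

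Transcription factors that pattern the face and limbs in the embryo were called in 6 of 46 cases, all higher, where 2.4% of all genes tested were higher. The list's median was 0.35. Barx1, a homeobox gene of the jaw and stomach mesenchyme, read 0.147, 0.152 and 0.259 CPM in WT and 1.78, 1.76 and 1.42 CPM in Ing1-KO. It was low in each WT library, and all Ing1-KO values lay above WT (log2 fold change 3.12 ± 0.30 (SE), adjusted p = 9.77e-04). Pax9, needed for teeth and pharyngeal derivatives, read 1.24, 0.759 and 0.856 CPM in WT and 3.65, 3.04 and 2.83 CPM in Ing1-KO (log2 fold change 1.73 ± 0.19 (SE), adjusted p = 0.00207), and Foxc1, a forkhead factor of head mesenchyme, read 6.08, 4.14 and 5.49 CPM in WT and 11.99, 13.8 and 9.58 CPM in Ing1-KO (log2 fold change 1.17 ± 0.18 (SE), adjusted p = 0.00924). Barx1, Pax9 and Foxc1 held in every fit. Tbx4 and Pitx1, both hindlimb regulators, rose 3.98-fold and 4.48-fold (adjusted p = 0.0330 and 0.0341), and Eya1, a cofactor in ear and kidney development, rose 2.01-fold (adjusted p = 0.0224). Pitx1 falls outside the naming rule and completes the list's calls; it was picked with its values in view. The list had 3 rises without Ing1-KO replicate 2 or any 1 WT library and 12 without Ing1-KO replicate 3, and 10 rises and 3 falls with the adipocyte score as covariate.

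Other developmental regulators were among the largest rises. Mab21l2, a gene of eye and body wall development, read 0.986, 1.37 and 1.89 CPM in WT and 7.56, 6.43 and 7.94 CPM in Ing1-KO, 5.14-fold higher (log2 fold change 2.36 ± 0.19 (SE), adjusted p = 5.28e-04). Mecom, a zinc-finger transcription factor, read 6.73, 6.98 and 7.72 CPM in WT and 27.9, 40.5 and 21.7 CPM in Ing1-KO, 4.195-fold higher (log2 fold change 2.07 ± 0.23 (SE), adjusted p = 0.00244). Both were separated from WT in every library and held in every fit. Meox1, a homeobox gene of the somites, rose 4.95-fold (adjusted p = 0.0125). Of 35 tested Hox genes, which set position along the body axis, 2 were higher and 3 lower. That was 14.3% called, against 4.32% of all genes tested. The rises were Hoxa6 and Hoxa7 (log2 fold changes 0.72 ± 0.17 and 0.75 ± 0.17) and the falls Hoxd3, Hoxd8 and Hoxd9 (log2 fold changes -0.60 ± 0.10, -0.71 ± 0.12 and -0.82 ± 0.19). Hoxd8, with the smallest adjusted p of the 5, 0.0106, read 26.01, 27.8 and 23.7 CPM in WT and 15.6, 13.4 and 18.4 CPM in Ing1-KO, and its groups did not overlap. None of the 5 held in every fit, and without WT replicate 2 no Hox gene was called.

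**Figure D2:**
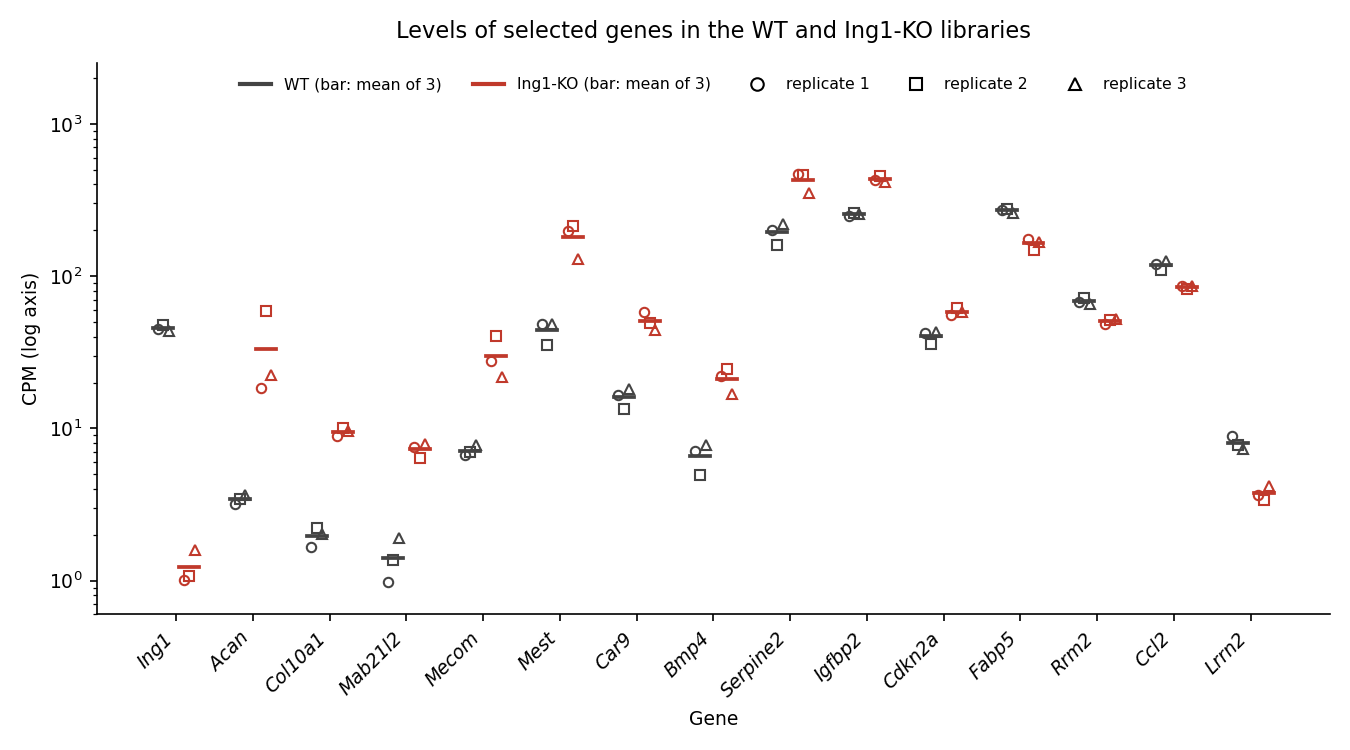
CPM (log axis) of 15 genes in the 3 WT libraries (grey) and the 3 Ing1-KO libraries (red), with a bar at each group mean and a symbol per replicate number. In each of these genes the WT and Ing1-KO values do not overlap; Ing1 falls below 2 CPM in Ing1-KO, and Acan spreads most widely within Ing1-KO.

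Signalling genes were split in direction. In the TGF-β and BMP pathway 2 of 46 tested genes were higher and 3 lower, or 10.9% called against 4.32% of all genes. The ligand Bmp4 read 7.11, 4.92 and 7.74 CPM in WT and 22.2, 24.5 and 16.8 CPM in Ing1-KO, a 3.201-fold rise (log2 fold change 1.68 ± 0.22 (SE), adjusted p = 0.00478) that held in every fit, and the ligand Bmp5 rose 2.33-fold (adjusted p = 0.0347). The receptor Bmpr2 and the activin subunit Inhbb fell (log2 fold changes -0.23 ± 0.05 and -0.63 ± 0.13, adjusted p = 0.0278 and 0.0279).

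Of 42 tested Wnt pathway genes 5 were higher and 2 lower, or 16.7% called against 4.32% of all genes tested. The higher genes were the agonists Rspo1 and Rspo2, the receptors Fzd6 and Fzd8, and Dkk3 of the Dickkopf family. Rspo2 read 23.4, 21.1 and 28.3 CPM in WT and 85.7, 75.8 and 37.6 CPM in Ing1-KO (log2 fold change 1.45 ± 0.25 (SE), adjusted p = 0.0158) and Fzd8 17.8, 15.7 and 19.3 CPM in WT and 34.8, 40.4 and 27.1 CPM in Ing1-KO (log2 fold change 0.96 ± 0.16 (SE), adjusted p = 0.0123). In both, Ing1-KO replicate 3 was the Ing1-KO library nearest to WT, without overlap. Dkk3, at 0.39 ± 0.05 (SE), adjusted p = 0.00381 on the log2 scale, was the Wnt gene that held in every fit. Nkd2, an inhibitor of the pathway, and the coreceptor Lrp5 fell (log2 fold changes -0.62 ± 0.11 and -0.20 ± 0.04, adjusted p = 0.0131 and 0.0347). The rises numbered 1 without WT replicate 1 or 2 and 8 without Ing1-KO replicate 3; with the adipocyte score as covariate 9 were higher and 5 lower.

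Of 41 tested neuropeptide, neurotrophin and axon guidance genes 5 were higher and 2 lower, or 17.1% called against 4.32% of all genes. Penk, the precursor of the enkephalin opioid peptides, had the largest rise among genes with at least 5 CPM in either group and read 13.03, 8.22 and 25.9 CPM in WT and 420, 188 and 55.03 CPM in Ing1-KO. The 14.04-fold difference (log2 fold change 3.81 ± 0.74 (SE), adjusted p = 0.0251) came with a wide spread within Ing1-KO, in which the order of the 3 libraries was that of their adipocyte scores, and it was lost in 4 of the 12 fits. Epha7, a receptor for ephrins, read 18.3, 16.7 and 18.8 CPM in WT and 31.6, 33.9 and 24.3 CPM in Ing1-KO (log2 fold change 0.74 ± 0.11 (SE), adjusted p = 0.00606) and held in every fit. Unc5c, a netrin receptor, and Ntrk3, a neurotrophin receptor, rose 2.22-fold and 1.63-fold (adjusted p = 0.0177 and 0.0283), whereas the ligands Ntn1 and Gdnf fell (log2 fold changes -0.60 ± 0.14 and -0.58 ± 0.14, adjusted p = 0.0407 and 0.0464). Without WT replicate 1, 2 or 3, or without Ing1-KO replicate 2, 1 gene of this list was higher and none lower.

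Some single genes had among the smallest adjusted p of all rises. Car9, a cell-surface carbonic anhydrase known as a hypoxia target, read 16.5, 13.4 and 18.2 CPM in WT and 57.9, 49.2 and 44.2 CPM in Ing1-KO, 3.15-fold higher (log2 fold change 1.65 ± 0.16 (SE), adjusted p = 0.00123). Cdsn, corneodesmosin of the skin, read 6.86, 6.55 and 8.14 CPM in WT and 19.6, 23.9 and 21.00 CPM in Ing1-KO (log2 fold change 1.58 ± 0.17 (SE), adjusted p = 0.00207). The nucleoside transporter Slc29a1 had a smaller but tight rise, from 25.9, 25.1 and 27.9 CPM in WT and 39.1, 37.3 and 36.9 CPM in Ing1-KO (log2 fold change 0.52 ± 0.05 (SE), adjusted p = 9.77e-04). In these 3 genes no Ing1-KO value overlapped with WT, and all held in every fit. Il1rn, the antagonist of the interleukin receptor for IL-1, read 35.7, 29.8 and 49.9 CPM in WT and 129, 103 and 113 CPM in Ing1-KO (log2 fold change 1.58 ± 0.19 (SE), adjusted p = 0.00381) and also held.

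Of 40 tested genes of DNA replication and mitosis 6 were called lower and none higher, where 1.92% of all genes tested were lower. The other 34 did not pass, and each of the 40 had a value below 0, their median being -0.30 on the log2 scale. Rrm2, the small subunit of ribonucleotide reductase that makes DNA precursors, read 68.1, 71.6 and 65.2 CPM in WT and 48.1, 51.2 and 52.2 CPM in Ing1-KO. It fell 1.35-fold (log2 fold change -0.43 ± 0.06 (SE), adjusted p = 0.00487) and held in every fit. The other calls were Rrm1, the large subunit, Mcm4 of the replicative helicase, the S-phase cyclins Ccne1 and Ccne2, and the mitotic kinase Aurka, with log2 fold changes of -0.26 ± 0.06, -0.29 ± 0.05, -0.28 ± 0.05, -0.38 ± 0.08 and -0.45 ± 0.10. Rrm1 and Aurka fall outside the naming rule and complete the list's calls. Mki67, the proliferation marker Ki-67, read 225, 243 and 203 CPM in WT and 150.2, 175 and 197 CPM in Ing1-KO, with Ing1-KO replicate 3 close to the WT libraries, and did not pass (adjusted p = 0.171). Summed over the list, levels were 1793, 1918 and 1696 CPM in WT and 1333, 1502 and 1578 CPM in Ing1-KO, so that all Ing1-KO sums lay below WT. The number called was 1 without Ing1-KO replicate 2 or WT replicate 1 or 2, 2 without WT replicate 3, 10 when Ing1-KO replicate 3 was dropped and 17 when the replicate 1 labelled Gadd45a-KO was dropped. It was 27 with the adipocyte score as covariate.

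Among 21 tested genes of the p53 pathway and cell cycle inhibition the single call was Cdkn2a, the locus of the inhibitors p16 and ARF, which read 42.2, 35.9 and 42.9 CPM in WT and 55.4, 62.03 and 57.7 CPM in Ing1-KO. Its 1.45-fold rise (log2 fold change 0.53 ± 0.07 (SE), adjusted p = 0.00487) held in every fit, and gene counts do not tell its transcripts apart. The single call is 4.76% of the list, against 4.32% of all genes tested. Cdkn1a, the p53 target p21, read 441, 417 and 445 CPM in WT and 468, 505 and 535 CPM in Ing1-KO, without overlap but short of the threshold (adjusted p = 0.0986), and Trp53 itself read 88.8, 91.4 and 93.5 CPM in WT and 79.6, 86.6 and 96.4 CPM in Ing1-KO (adjusted p = 0.612). Of 19 tested ING proteins and SIN3 complex members Ing1 alone was called, and the other 18 did not pass, the highest having a log2 fold change of 0.13. Ing2, the closest relative of Ing1, read 10.6, 10.6 and 10.2 CPM in WT and 10.7, 11.97 and 11.02 CPM in Ing1-KO (adjusted p = 0.365) and Sin3a, the scaffold, 67.1, 71.3 and 69.97 CPM in WT and 71.9, 68.9 and 76.1 CPM in Ing1-KO (adjusted p = 0.509). No gene was called among 16 of DNA methylation and demethylation, whose median was 0.00 and smallest adjusted p 0.0878.

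Genes of cholesterol synthesis and uptake were called most often of any list, 10 lower and none higher of 24 tested, with a median log2 fold change of -0.27. They are the targets of the sterol-sensing factor SREBF2. The share called was 41.7%, where 1.92% of all genes tested were lower. The sums over the list were 1961, 1716 and 1822 CPM in WT and 1638, 1454 and 1301 CPM in Ing1-KO, every Ing1-KO library below every WT library. Sc5d, a late desaturase of the pathway, read 72.9, 67.3 and 71.6 CPM in WT and 61.7, 52.2 and 48.2 CPM in Ing1-KO. Its groups did not overlap (log2 fold change -0.39 ± 0.08 (SE), adjusted p = 0.0244), and the call was lost in 4 of the 12 fits. Lss, which closes the sterol ring, read 90.96, 74.9 and 84.97 CPM in WT and 72.4, 57.7 and 49.2 CPM in Ing1-KO (log2 fold change -0.48 ± 0.12 (SE), adjusted p = 0.0468), and Cyp51, which removes a methyl group from the product, read 205, 185 and 192 CPM in WT and 172, 159.7 and 138 CPM in Ing1-KO (log2 fold change -0.31 ± 0.07 (SE), adjusted p = 0.0348). In both, each Ing1-KO library lay below each WT library, with Ing1-KO replicate 3 the lowest. Fdps, Fdft1 and Sqle, enzymes of the steps before, had log2 fold changes of -0.34 ± 0.08, -0.27 ± 0.06 and -0.27 ± 0.06 (adjusted p = 0.0461, 0.0343 and 0.0394). All of these enzymes but Sc5d fall outside the naming rule and were picked with their values in view. With the adipocyte score as covariate 7 of the 10 were called, and 5 genes were lower without DKO replicate 1 or Gadd45a-KO replicate 3 as labelled. The number lower was 1 without Ing1-KO replicate 2 or WT replicate 1, 2 without WT replicate 2 or 3, and 17 and 6 when Ing1-KO replicate 1 or 3 was left out.

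The RefSeq promoter table (GRCm38.p6, 250 bases before to 50 after each start) matched 16 of the 24 tested cholesterol genes, and 3 of the 10 that fell. Promoters of those 3 are shown because the genes fell together; each holds the letters CCAAT, searched on both strands and marked in capitals (as ATTGG where they lie on the opposite strand). The sequences run 5′ to 3′ on the gene's strand, for Cyp51 at chr5:4104648-4104947 on the minus strand, for Lss at chr10:76531355-76531654 on the plus strand and for Sc5d at chr9:42264251-42264550 on the minus strand.
Cyp51: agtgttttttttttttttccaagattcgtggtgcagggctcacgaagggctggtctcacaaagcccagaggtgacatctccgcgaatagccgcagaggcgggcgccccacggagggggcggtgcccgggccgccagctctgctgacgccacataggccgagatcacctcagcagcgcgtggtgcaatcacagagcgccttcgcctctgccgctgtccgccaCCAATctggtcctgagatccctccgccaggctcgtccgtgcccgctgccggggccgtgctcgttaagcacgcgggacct
Lss: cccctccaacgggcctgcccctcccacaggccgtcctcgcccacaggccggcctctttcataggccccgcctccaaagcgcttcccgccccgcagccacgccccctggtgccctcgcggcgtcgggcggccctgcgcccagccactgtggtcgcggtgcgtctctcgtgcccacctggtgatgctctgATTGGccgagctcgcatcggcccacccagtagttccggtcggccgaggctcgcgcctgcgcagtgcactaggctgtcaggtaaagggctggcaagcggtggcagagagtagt
Sc5d: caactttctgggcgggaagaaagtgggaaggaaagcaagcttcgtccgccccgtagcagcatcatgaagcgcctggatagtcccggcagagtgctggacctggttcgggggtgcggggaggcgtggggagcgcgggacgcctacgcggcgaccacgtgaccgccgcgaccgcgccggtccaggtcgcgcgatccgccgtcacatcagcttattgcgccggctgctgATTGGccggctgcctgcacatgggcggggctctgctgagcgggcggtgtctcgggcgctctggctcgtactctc
The match begins 29 bases before the start in Cyp51, 62 in Lss and 24 in Sc5d. CCAAT was in 15 of the 16 matched cholesterol genes, counting any start of a gene, and in 41.1% of all 27025 genes of the table. The letters TCACNCCAC, a form of the sterol response element, were in 0 of the 16 and in 1.44% of all genes. Other forms of the element were not searched, so the lack of this string does not show that the element is absent. A match is a description of the window only.

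Fat-cell genes had the lowest median of any list, -0.79 over 37 genes, and 35 of the 37 had a value below 0, but 3 were called. Those 3 were lower, 8.11% of the list, where 1.92% of all genes tested were lower. The list's sums were 6929.5, 4193 and 6480.1 CPM in WT and 6075, 3059.6 and 2024 CPM in Ing1-KO, and Ing1-KO replicate 1 lay within the WT range. Adipoq, the hormone adiponectin, read 164, 68.98 and 153 CPM in WT and 146, 44.05 and 9.14 CPM in Ing1-KO (log2 fold change -0.95 ± 0.72 (SE), adjusted p = 0.505), and Fabp4, the fatty acid carrier of adipocytes, 1216, 627 and 1181 CPM in WT and 1219, 406 and 98.8 CPM in Ing1-KO (log2 fold change -0.81 ± 0.65 (SE), adjusted p = 0.5304). Pparg, the master regulator, read 20.6, 10.97 and 19.6 CPM in WT and 18.7, 7.79 and 2.27 CPM in Ing1-KO (log2 fold change -0.84 ± 0.53 (SE), adjusted p = 0.414), and Cebpa 55.98, 30.9 and 48.6 CPM in WT and 49.95, 24.8 and 18.3 CPM in Ing1-KO (log2 fold change -0.54 ± 0.32 (SE), adjusted p = 0.376). In these 4 genes the groups overlapped, with Ing1-KO replicate 1 near the higher WT values and replicate 3 the lowest of the 6. Plin1, the coat protein of the lipid droplet, and Lpl, lipoprotein lipase, had log2 fold changes of -1.02 ± 0.69 and -0.90 ± 0.52 (adjusted p = 0.444 and 0.363). The called members were Fabp5, an epidermal-type fatty acid carrier, at 273, 276 and 261 CPM in WT and 177, 148 and 169 CPM in Ing1-KO (log2 fold change -0.71 ± 0.10 (SE), adjusted p = 0.00561), Cav1, the caveolar coat protein (-0.33 ± 0.07 (SE), adjusted p = 0.0347), and Orm1, the plasma protein orosomucoid (-2.03 ± 0.51 (SE), adjusted p = 0.0402). Fabp5 held in every fit. The number lower was 19 without Ing1-KO replicate 1 and between 1 and 3 without any other of the 6 libraries.

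**Figure D3:**
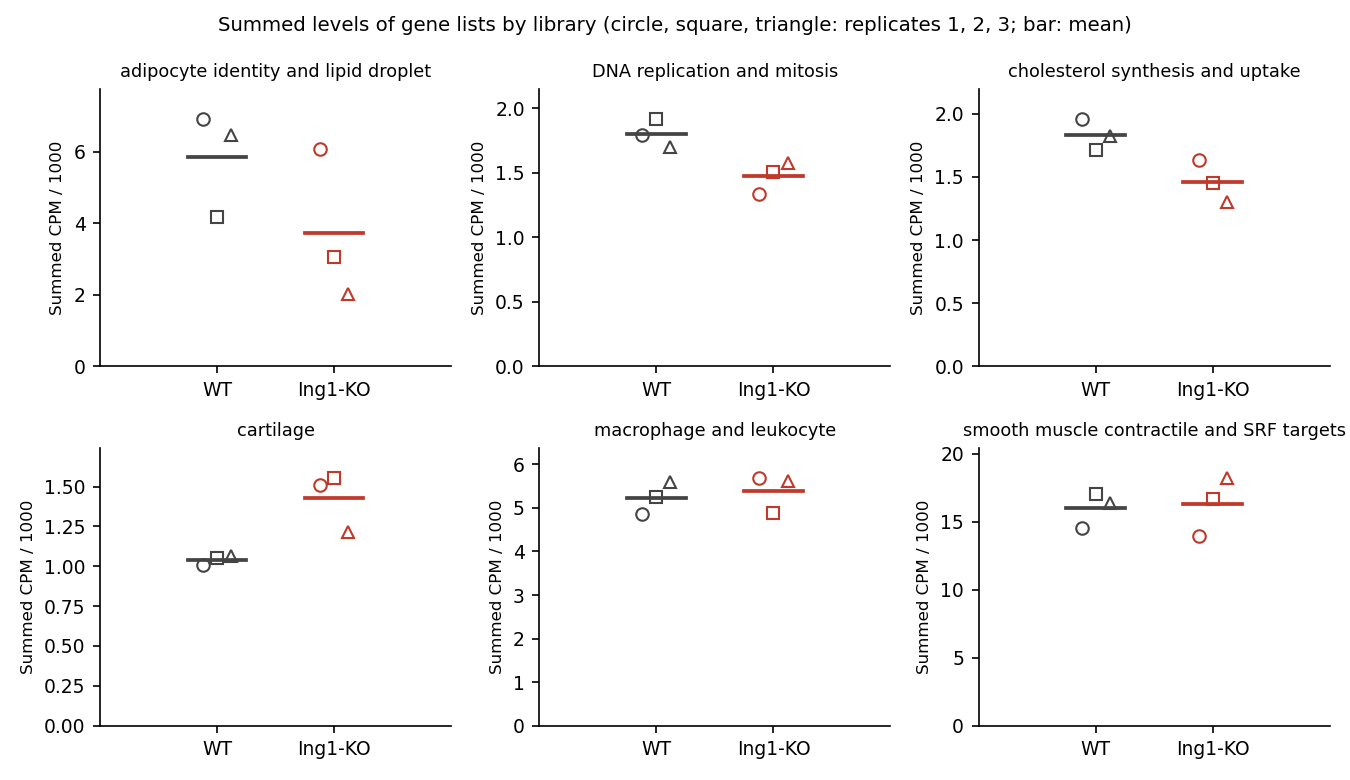
Summed CPM (divided by 1000, axes from 0) of 6 gene lists in each WT (grey) and Ing1-KO (red) library, with bars at the means. The cholesterol and replication sums are lower in each Ing1-KO library, the cartilage sum, in which Col11a1 goes from a mean of 541 to 825 CPM, is higher in each, and the adipocyte sum runs from 2024 to 6075 CPM within Ing1-KO.

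Of 37 tested adipogenic regulators 2 were lower and 1 higher, or 8.11% called against 4.32% of all genes tested. Cebpb, an early factor of the cascade, read 16.7, 16.4 and 16.3 CPM in WT and 14.7, 13.5 and 13.96 CPM in Ing1-KO and fell slightly (log2 fold change -0.23 ± 0.05 (SE), adjusted p = 0.0283), Bhlhe40 fell (log2 fold change -0.33 ± 0.07 (SE), adjusted p = 0.0372), and Klf2, an inhibitor of adipogenesis, rose (log2 fold change 0.43 ± 0.10 (SE), adjusted p = 0.0345). Cebpd, induced together with Cebpb, read 28.5, 23.5 and 23.4 CPM in WT and 24.3, 24.9 and 19.4 CPM in Ing1-KO, with overlapping groups (adjusted p = 0.531). In fatty acid and triglyceride synthesis 2 of 30 genes were lower, the desaturases Scd2 and Fads1 (log2 fold changes -0.40 ± 0.09 and -0.27 ± 0.07, adjusted p = 0.0374 and 0.0467), and the median was -0.35. That count was 17 without Ing1-KO replicate 1. Cpt1a, which admits fatty acids to mitochondria, was the single call of 26 in fatty acid oxidation and was higher (log2 fold change 0.22 ± 0.05 (SE), adjusted p = 0.0383), while 23 of the 26 had a value below 0 and the median was -0.17. That list had 5 falls without Ing1-KO replicate 1. Of 22 genes of the glucocorticoid and cAMP response, to which the cocktail is directed, Sgk1 and Pde4b fell (log2 fold changes -0.35 ± 0.07 and -0.30 ± 0.07, adjusted p = 0.0197 and 0.0402). The shares called of the synthesis, oxidation and response genes were 6.67%, 3.85% and 9.09%. Without Ing1-KO replicate 2 or any 1 WT library, none of the regulators, synthesis genes, oxidation genes or response genes was called.

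Among called genes with at least 5 CPM in either group and no overlap, the falls after Ing1 were at most 2.68-fold. Ptger3, a receptor for prostaglandin E, read 19.3, 14.7 and 14.1 CPM in WT and 7.36, 6.55 and 7.37 CPM in Ing1-KO (log2 fold change -1.17 ± 0.21 (SE), adjusted p = 0.0162). Nt5e, the surface enzyme that makes adenosine from AMP, read 86.3, 59.1 and 66.7 CPM in WT and 30.5, 22.4 and 35.3 CPM in Ing1-KO (log2 fold change -1.26 ± 0.26 (SE), adjusted p = 0.0283). These 2 were the calls among 23 tested prostaglandin and purine genes, or 8.70% against 4.32% of all genes tested. In neither did the groups overlap, and neither call held in every fit. Cyp26b1, which degrades retinoic acid, read 135, 121 and 119.5 CPM in WT and 69.8, 58.6 and 65.1 CPM in Ing1-KO (log2 fold change -0.96 ± 0.18 (SE), adjusted p = 0.0231), and Cnr1, a cannabinoid receptor, 9.396, 7.93 and 8.64 CPM in WT and 4.65, 3.94 and 4.597 CPM in Ing1-KO (log2 fold change -0.98 ± 0.17 (SE), adjusted p = 0.0128). Hgsnat, a lysosomal enzyme of heparan sulfate breakdown, read 114, 80.3 and 57.2 CPM in WT and 38.98, 39.9 and 36.5 CPM in Ing1-KO, with a wide WT range (log2 fold change -1.12 ± 0.25 (SE), adjusted p = 0.0390). Cyp4b1, which had the largest of these falls, Pcdh20, Sbsn and Pcsk5 fell by 2.68-fold, 2.57-fold, 2.42-fold and 1.92-fold (adjusted p = 0.0433, 0.0248, 0.0484 and 0.0237).

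Other falls are named for their small adjusted p. Lrrn2, a leucine-rich repeat protein of neurons, read 8.87, 7.804 and 7.37 CPM in WT and 3.63, 3.39 and 4.19 CPM in Ing1-KO (log2 fold change -1.10 ± 0.11 (SE), adjusted p = 9.77e-04), and Plxna4, a semaphorin receptor, 46.6, 49.03 and 44.2 CPM in WT and 32.2, 32.3 and 35.2 CPM in Ing1-KO (log2 fold change -0.49 ± 0.05 (SE), adjusted p = 9.77e-04). Vdr, the vitamin D receptor, read 84.1, 73.2 and 73.4 CPM in WT and 49.7, 49.4 and 53.7 CPM in Ing1-KO (log2 fold change -0.59 ± 0.07 (SE), adjusted p = 0.00230), and Prdx6, a peroxiredoxin, 154, 142 and 155 CPM in WT and 116, 113 and 116 CPM in Ing1-KO (log2 fold change -0.38 ± 0.04 (SE), adjusted p = 0.00163). In all 4 the Ing1-KO values were close together below WT, and all 4 held in every fit. Tfpi2, an inhibitor of serine proteases, and Shank2, a synaptic scaffold, fell 2.06-fold and 1.87-fold and held as well (adjusted p = 0.00230 and 0.00245).

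Of 37 tested chemokines and cytokines 2 were lower and 1, Il1rn, higher, or 8.11% called against 4.32% of all genes tested. Ccl2, the main attractant of monocytes, read 119.8, 109 and 125 CPM in WT and 86.7, 82.5 and 85.5 CPM in Ing1-KO (log2 fold change -0.47 ± 0.07 (SE), adjusted p = 0.00788), and its neighbour Ccl7 125, 109 and 122 CPM in WT and 86.1, 87.9 and 91.8 CPM in Ing1-KO (log2 fold change -0.42 ± 0.06 (SE), adjusted p = 0.00654). Both held in every fit, and no WT value overlapped with Ing1-KO. Jak2, a kinase of cytokine receptors, fell 1.38-fold (adjusted p = 0.00313) and held. None of 32 interferon-stimulated genes was called (smallest adjusted p 0.161), with a median of 0.05.

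Markers of other cell types were read beside these groups. No gene was called among 27 of macrophages and leukocytes, whose sums were 4862, 5243 and 5592 CPM in WT and 5687, 4877 and 5612 CPM in Ing1-KO, nor among 26 of contractile smooth muscle, whose sums were 14551, 17026 and 16367 CPM in WT and 13964, 16678 and 18225 CPM in Ing1-KO. In both lists the groups overlapped. Endothelial markers, of which 13 of 18 were tested and 2 were at 0 in all 6 libraries, gave Erg higher and Flt1 lower. Erg, an ETS factor of endothelium and cartilage, read 2.64, 3.29 and 3.504 CPM in WT and 8.46, 12.4 and 6.02 CPM in Ing1-KO (log2 fold change 1.51 ± 0.28 (SE), adjusted p = 0.0185), and Flt1, a VEGF receptor, 235, 269.7 and 253 CPM in WT and 126, 125 and 180.1 CPM in Ing1-KO (log2 fold change -0.81 ± 0.15 (SE), adjusted p = 0.0224). The list's sums, 249.9, 284 and 269 CPM in WT and 151, 149.8 and 196 CPM in Ing1-KO, were mostly Flt1. Sums over markers of glia, neurons and melanocytes were 172, 154 and 157 CPM in WT and 132, 123 and 112 CPM in Ing1-KO, lower in each Ing1-KO library, with no call among 14 tested. Single calls were Cdh1 among 11 epithelial markers, lower (log2 fold change -1.002 ± 0.24 (SE), adjusted p = 0.0407), and Tnnt1 among 15 skeletal muscle markers, higher (log2 fold change 0.70 ± 0.16 (SE), adjusted p = 0.0406). The shares called were 15.4% of endothelial, 9.09% of epithelial and 6.67% of skeletal muscle markers, against 4.32% of all genes tested. The part of these markers in the changes above was not tested. None of 35 oxidative phosphorylation genes and none of 33 unfolded protein and stress response genes was called (medians -0.05 and 0.04).

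**Figure D4:**
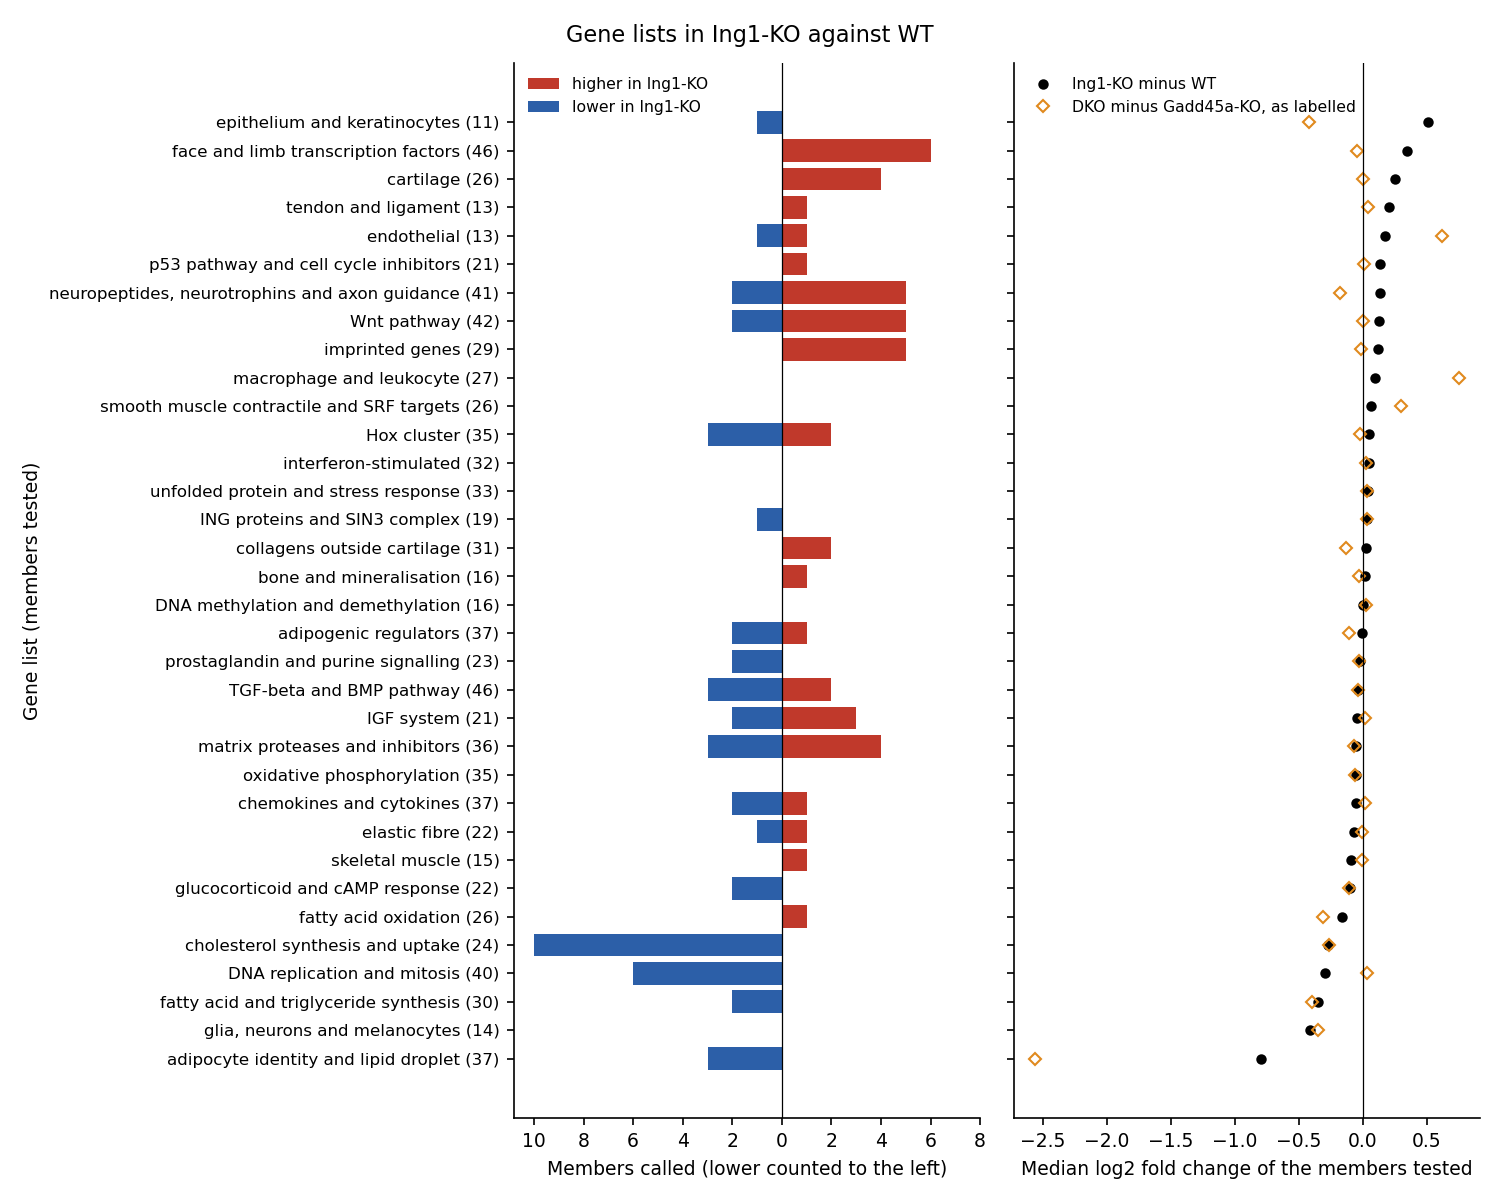
Left, the number of members called higher (red, to the right) and lower (blue, to the left) in Ing1-KO for each of 34 gene lists, with the number tested in parentheses; right, the median log2 fold change of the members tested in Ing1-KO minus WT (black) and in DKO minus Gadd45a-KO as labelled (orange). Cholesterol genes have the most calls, 10 lower, and the adipocyte list has the lowest medians, -0.79 and -2.56.

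The loss of Ing1 can be read a second time, in the 3 libraries labelled DKO against the 3 labelled Gadd45a-KO, which share no library with the first comparison. Both comparisons came from the same fit of all 12 libraries, so the 2 tests of a gene share 1 estimate of its spread. Calls in the 2 comparisons are therefore not independent. In that comparison 203 genes were called, 1.26% of those tested (0.662% higher and 0.594% lower). Of the 388 genes higher in Ing1-KO 283 (72.9%) had the same sign there, and of the 311 lower 266 (85.5%), where 58.2% of all genes had the same sign. Called in both comparisons were 79 genes, 11.3% of the 699 and 38.9% of the 203, of which 35 rose in both, 41 fell in both and 3 went opposite ways. The adipocyte score was 4.43, 4.40 and 4.02 in the libraries labelled Gadd45a-KO and 1.90, 1.77 and 2.18 in those labelled DKO, without overlap, which the first comparison did not have. The summed macrophage and leukocyte markers did not overlap either: the sums were 2641, 7612 and 7046 CPM under the label Gadd45a-KO and 9816, 9322 and 9245 CPM under DKO, and all 27 had a value above 0, with a median of 0.75 and no call. The part of either in these calls was not tested beyond the covariate: with the adipocyte score in the fit 76 genes were called, 10 of them among the 203. Without DKO replicate 1 the comparison had 6 calls, without DKO replicate 2 it had 17 and without Ing1-KO replicate 3 it had 590. A test of the difference between the 2 effects called 0 genes with edgeR, with 2204 at an unadjusted p under 0.05 and a smallest adjusted p of 0.0692, 0 with limma-voom and 175 with DESeq2.

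Among the rises, Mab21l2, Col10a1, Scx and Car9 were called in both comparisons, with log2 fold changes of 1.91, 2.38, 1.18 and 1.27 in the second. Acan had 2.27 there and Eln 1.43, short of the threshold (adjusted p = 0.0549 and 0.101). Mest had 0.70 and Bmp4 0.58 (adjusted p = 0.0940 and 0.175). Among the falls, Ptger3, Cnr1, Cyp26b1, Hgsnat, Plxna4, Ccl2 and Ccl7 were called in both, with -1.12, -1.25, -0.89, -1.72, -0.69, -0.56 and -0.45 in the second. Cdkn2a, by contrast, had -0.08 and Rrm2 -0.06 (adjusted p = 0.594 and 0.619), and the median of the replication and mitosis genes was 0.04. The medians of the face and limb factors and of the imprinted genes were -0.04 and -0.01, while that of the cholesterol genes was -0.26, with 1 call. Tmem267 had opposite signs, -1.13 ± 0.15 in Ing1-KO against WT and 0.63 in the second comparison, and carried the smallest p of the test of the difference.

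**Figure D5:**
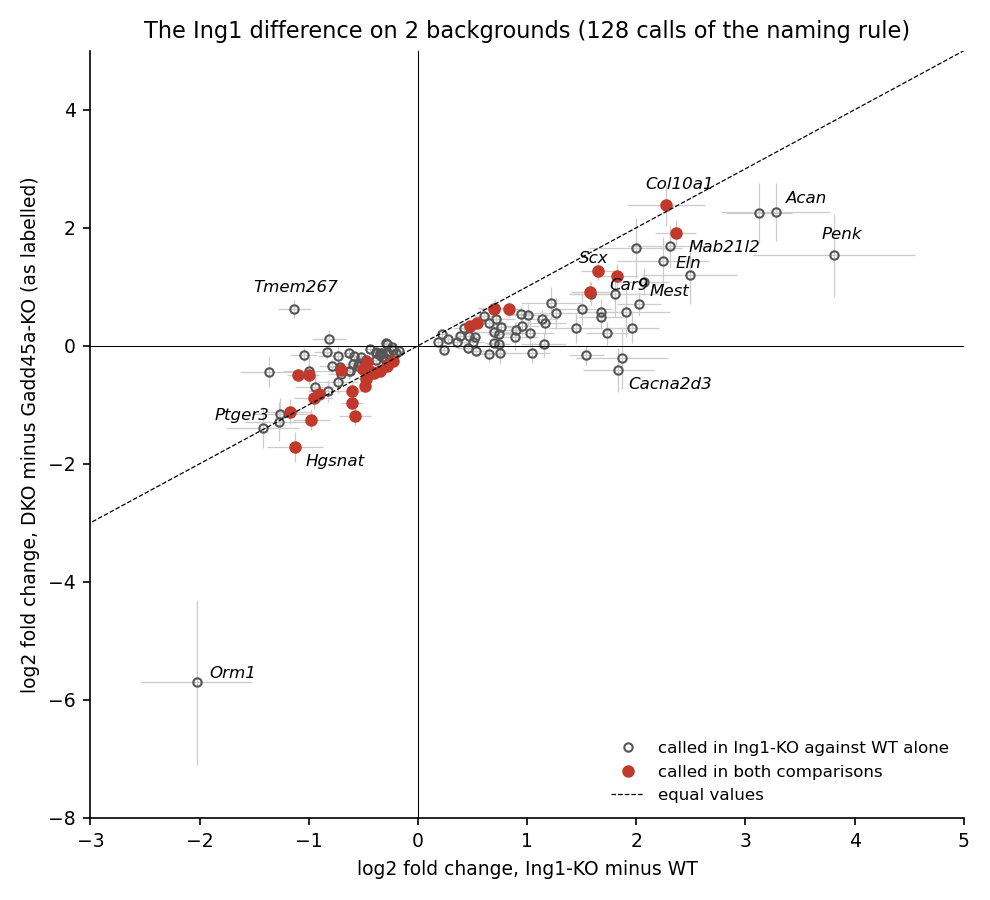
Log2 fold change (± SE) of the 128 calls that the naming rule takes besides Ing1 in Ing1-KO minus WT (horizontal) and in DKO minus Gadd45a-KO as labelled (vertical); filled red points were called in both, and the dashed line marks equal values. Most points share their sign, with smaller rises on the vertical axis, while some, Tmem267 and Cacna2d3 among them, have opposite signs. The points were picked by their horizontal values, which by itself favours larger values on that axis. The smaller vertical values therefore do not show a weaker effect there.

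The neighbours of Ing1 on chromosome 8 were taken as a set fixed by position. Of the 30 tested genes on either side 2 were higher and 2 lower, or 6.67% against 4.32% of all genes tested. Mcf2l, a guanine nucleotide exchange factor, and Tmco3 rose (log2 fold changes 0.70 ± 0.13 and 0.18 ± 0.03, adjusted p = 0.0170 and 0.0150). Tfdp1, the partner of the E2F factors, and Lrrc8e, a subunit of volume-regulated anion channels, fell (log2 fold changes -0.17 ± 0.04 and -0.73 ± 0.18, adjusted p = 0.0407 and 0.0485). Of these 4, Mcf2l was also called in the libraries labelled DKO against Gadd45a-KO, at 0.63, and none held in every fit.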

How the data were processed

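RNA from 12 libraries of mouse embryonic fibroblasts on day 6 of adipogenesis, 3 per genotype as labelled, was sequenced as 51-cycle single reads. What the authors deposited are raw read counts per gene. The submitters' processing notes list HTSeq 0.5.4, Bowtie2 2.1.0, TopHat2 2.0.9, DESeq and FastQC and the builds mm9 and NCBIM37; the counting mode and whether strand was used: not given in the sources used here. The 5 lines that name no gene, 24.2% to 24.8% of each library, were left out. Reads that map to several places are missing, which lowers near-identical genes. Symbols came from a GENCODE annotation of a later build, matched 32916 of 37991 identifiers and were used for names and neighbours.

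CPM and tests were computed here with edgeR 4.0.16 in R 4.3.3 (TMM, filterByExpr by genotype, robust quasi-likelihood without the legacy option), fitting genotype means to all 12 libraries together, with Benjamini-Hochberg adjustment over 16163 genes; the common biological coefficient of variation was 0.105. SE is the absolute log2 fold change over the square root of F. The steps were tested on simulated counts. Alternatives were other scalings and filters, DESeq2 1.42.0, limma-voom (limma 3.58.1), the replicate number as a block, 6 libraries alone, each library left out, a fold of at least 2 and an adipocyte score as covariate; the legacy fit was added after seeing the data.

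The comparison, the 34 gene lists and the rule for named genes were chosen with earlier results of these data known. The rule takes a panel of 22 genes whatever their values; the 15 largest rises and falls and the 10 of smallest adjusted p each way, with at least 5 CPM in either group and no overlap; up to 4 called members per list and direction; up to 20 each way that were called in every fit without 1 library; and called neighbours of Ing1. The text names those its sentences are about, and some that the rule takes are not reported here.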

Additional observations from a re-analysis of the deposited data

How the results depend on the processing

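The counts of genes called in Ing1-KO against WT stayed within 1.5 times of 388 higher and 311 lower with RLE or upper-quartile factors, either filter, limma-voom, the legacy fit, the replicate block, and without DKO replicate 2 or 3 or Gadd45a-KO replicate 2 as labelled. DESeq2 called 650 and 614, the adipocyte covariate 817 and 819, the 6 libraries alone 217 and 171, and a 2-fold minimum kept 109 and 41. Leaving out 1 of the 12 libraries gave 63 to 698 higher and 38 to 539 lower. In DKO against Gadd45a-KO as labelled, 203 genes became 1234 with DESeq2, 76 with the covariate, 424 with the 6 libraries alone, 95 with the replicate block, 35 at a fold of at least 2, and 6 to 590 without 1 library. The difference between the 2 effects, 0 genes, became 175 with DESeq2, 4 with the covariate, 1 with no filter and 0 to 191 without 1 library. Causes were not tested, beyond the fewer libraries or genes an alternative holds.

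The labels do not say whether replicate numbers pair the libraries. Same-numbered Ing1-KO and WT libraries had deviation correlations of 0.25, -0.06 and -0.19, and differently numbered ones ran from -0.38 to 0.39. With 3 libraries per group these values can neither show nor exclude a pairing. With the replicate block 286 genes were higher and 286 lower, 266 and 220 of them also called without it.

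None of the 129 calls that the naming rule takes changed sign under any alternative. Calls lost numbered 73 without Ing1-KO replicate 2, 72, 68 and 59 without WT replicate 1, 2 and 3, 21 and 10 without Ing1-KO replicate 1 and 3, 31 without Gadd45a-KO replicate 3 and 29 without DKO replicate 1 as labelled, 46 with the 6 libraries alone, 26 with no filter, 16 with the replicate block and 13 with the covariate; each other alternative lost 14 or fewer. Signs turned in genes that were not called. With the covariate, log2 fold changes were 0.00299 for Cebpa, 0.0135 for Cebpd, 0.0536 for Fabp4 and 0.0367 for Adipoq. Fabp4 and Adipoq are fat-cell genes of the kind the score averages, so the covariate takes up most of their difference by construction. Over the fits that each dropped 1 library, log2 fold changes ran from -0.154 to 0.0807 for Gadd45a, from -0.135 to 0.00437 for Trp53, from -0.0680 to 0.197 for Sox9 and from -0.171 to 0.415 for Dlk1.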

Other observations

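Wider windows around Ing1 were chosen after the data had been seen. Within 25 Mb of Ing1 on chromosome 8, 18 of 170 tested genes (10.6%) were called in Ing1-KO against WT, 8 higher and 10 lower, against 3.1% of 645 genes farther away on the chromosome and 4.3% of 15347 genes on other chromosomes. Within 10 Mb the share was 9.2% of 87 genes and from 10 to 25 Mb 12.0% of 83. In the libraries labelled DKO against Gadd45a-KO the shares were 4.12% within 25 Mb and 1.23% on other chromosomes, and 15 of the 18 genes had the same sign in both comparisons. Among the 18 were Hgsnat, Fut10, Rbpms, Adam9, Atp7b, Nek3 and Angpt2. Fut10, a fucosyltransferase, and Rbpms, an RNA-binding protein of smooth muscle and germ cells, were called in every fit without 1 library. The cause was not tested.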
